A study of Rattus norvegicus with 6 samples.

Results

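The genes described here are the enzymes and regulators of the glutathione, thioredoxin and superoxide defence, measured in cerebral arteries of Dahl rats on a high or a low salt diet. Members were chosen by gene symbol alone: every gene on the array whose symbol belongs to the Gst, Mgst, Gpx, Prdx, Txn or Sod series, with Cat, Gclc, Gclm, Gsr, Gss, Nqo1, Srxn1, Nfe2l2, Keap1 and Ucp2. This gave 58 of the 10411 genes that had a probe set with a single symbol, and each gene was read from the probe set that was brightest on average over the 6 arrays. Prdx1, Prdx1l1, Gsta2 and Gsta5 were left out, because the annotation of their probe sets carries more than 1 gene symbol.

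Dahl rats were bred for how their blood pressure responds to salt, into sensitive and resistant lines, and the labels say only Dahl. From 7 weeks of age, rats ate chow with 8% NaCl (high salt, 3 arrays) or 0.4% NaCl (low salt, 3 arrays). The treatment text gives 12 weeks on either diet, while the sample characteristics give 11 weeks for high salt and 12 for low salt. Each array held RNA pooled from the middle cerebral, posterior cerebral and posterior cerebellar arteries of 3 rats, so that 9 rats stood behind each diet, and p-values measure the spread between pools. All animals ate the low salt chow before the study, and their sex is not stated in the labels. Storage was by snap freezing or in RNAlater, without a record of which pool had which. All levels below are log2 values, so that a difference of 1 is a doubling.

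Cells meet superoxide and peroxides in steps. Superoxide dismutases turn superoxide into hydrogen peroxide, and catalase, glutathione peroxidases and peroxiredoxins break the peroxide down. Glutathione, a small thiol peptide, and thioredoxin, a small thiol protein, supply the electrons and are recharged by reductases that draw on NADPH. Glutathione S-transferases attach glutathione to reactive compounds, among them the aldehydes left by oxidised lipids. In arteries superoxide consumes nitric oxide, the relaxing signal of the endothelium, which is why this defence is studied in hypertension.

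Many of these genes are known targets of Nfe2l2 (also called Nrf2), a transcription factor that binds the antioxidant response element. Its core letters, TGACNNNGC, were searched on both strands in the RefSeq promoter table (build GRCr8, 250 bases before to 50 bases after each gene's start). A promoter was found by gene identifier for 50 of the 58 members, and 17 of these (34%) held the letters, against 15.4% of 8611 promoters of genes on the array and 12.1% of all 33469 promoters in the table. The stretches of 4 members are shown with the matching letters in capitals, because they are genes of different arms of the defence. The capitals of the transferase Gstp1 read on the gene's own strand, and those of Gclm, Txnrd1 and Sod2 on the opposite one.
Gstp1, chr1:210769728-210769796, minus strand: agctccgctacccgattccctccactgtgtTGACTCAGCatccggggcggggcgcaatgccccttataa
Gclm, chr2:213031933-213032001, plus strand: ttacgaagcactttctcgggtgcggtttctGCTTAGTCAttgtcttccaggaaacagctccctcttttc
Txnrd1, chr7:22755944-22756012, minus strand: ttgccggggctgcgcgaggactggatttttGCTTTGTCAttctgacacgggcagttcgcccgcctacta
Sod2, chr1:50050169-50050233, minus strand: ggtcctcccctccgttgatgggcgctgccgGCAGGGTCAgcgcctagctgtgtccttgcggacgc
The match starts 61 bases before the start of Gstp1, 172 before Gclm, 78 before Txnrd1 and 35 before Sod2. The capitals of Gstp1 also hold TGANTCA, the letters of the AP-1 site, and are the only 1 of the 18 matches to do so. A match is a run of letters and says nothing of binding. High salt arrays averaged higher in 16 of the 17 members with the letters (median difference 0.46) and in 26 of the 33 without them (median 0.24). The same split was not made over the other genes of the array. A part of Nfe2l2 in these differences was not tested.

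Most members stood higher after high salt, but none passed the test. Of the 58 genes, 47 were higher and 11 lower, and the median difference (high salt minus low salt) was 0.31. Over all 10411 genes 60.0% were higher, with a median of 0.07. By limma with Benjamini-Hochberg adjustment over all 15866 probe sets, 0 members had an adjusted p below 0.05, as for the array as a whole (0%). Adjusted p ran from 0.803 to 0.996 among the members. At an unadjusted p below 0.05 stood 9 members, all of them higher, where 6.43% of all genes were called by that rule, 5.72% higher and 0.711% lower. In 13 members every high salt array lay above every low salt array, and in 1 member below (8.64% and 3.32% of all genes).

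The whole array leaned upward in its bright probe sets, and the deposited arrays differed in scale. Every high salt array had a higher median over all probe sets (8.17, 8.15 and 8.17) than any low salt array (7.96, 8.07 and 8.07). Low salt replicate 1 also had the narrowest interquartile range (2.57, with the others at 2.92 to 3.18). Differences and counts are not corrected for this offset unless a scaling is named. The members are bright. Of the 58, 21 lay in the brightest quintile of genes and 18 in the next. In the brightest quintile the median difference was 0.46 for the members and 0.26 for all genes, and in the next it was 0.33 and 0.23. All high salt arrays lay above all low salt arrays for 33.3% of the members in the brightest quintile, against 10.6% of its genes. In the next quintile the order was the other way, with 11.1% of the members (2 of 18) against 13.4% of the genes. The 6 members that fell short of the 40th percentile of mean level were Gsr, Gsta3, Gstm3, Gpx2, Gpx6 and Txndc11, where a difference says little about the RNA.

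**Figure D1:**
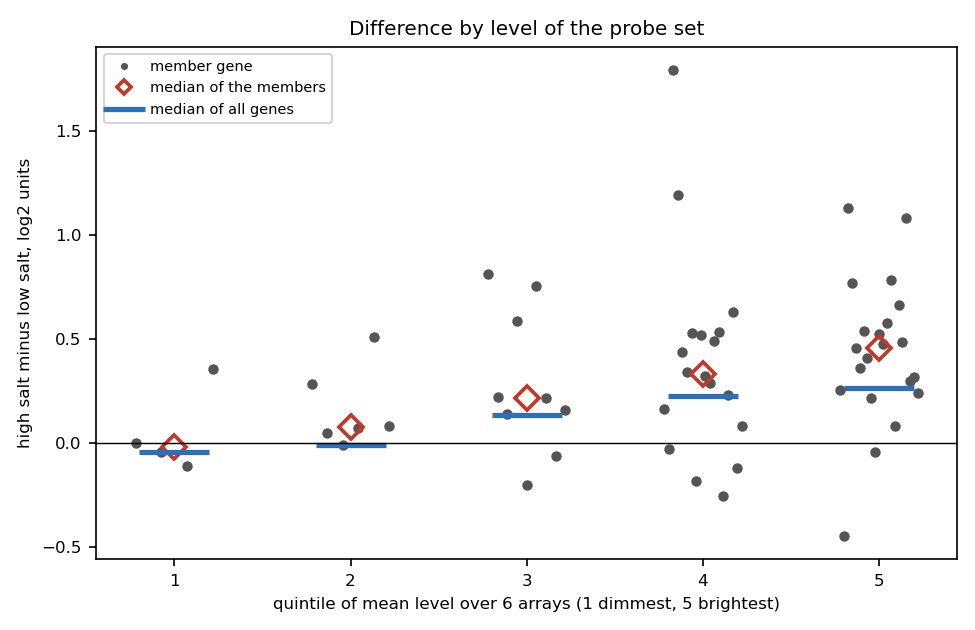
Difference between diets (high salt minus low salt, log2 units) against the quintile of mean level over 6 arrays. Each grey point is a member gene, the red diamonds are the medians of the members and the blue bars the medians of all genes; both medians climb with level, to 0.46 for the members and 0.26 for all genes in the brightest quintile.

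The arrays were not equally alike, and this touches every member. Low salt replicate 1 was the lowest of the 6 arrays for 24 members and the highest for 11. Low salt replicate 2 was nearer to the high salt arrays than to the other low salt arrays (correlation over the members 0.969 to 0.987 with high salt, 0.892 and 0.919 with low salt), as it was over all probe sets. High salt replicate 2 was the highest array for 22 members. Marker lists of cells moved between arrays as well. Of 10 astrocyte markers 9 were higher after high salt, and the list averaged 10.37 to 10.73 after high salt and 9.42, 10.70 and 8.70 on low salt replicates 1, 2 and 3. All 10 smooth muscle markers were lower, at a mean of 11.00 to 11.05 after high salt against 11.55, 10.83 and 11.65 after low salt. All 4 measured red blood cell markers were higher (9.94 to 10.43 after high salt, 9.60 to 9.68 after low salt). Of 8 endothelial markers 7 were higher (9.82 to 10.09 after high salt, 9.52 to 9.90 after low salt), of 9 neuron markers 4 (7.81 to 7.99 after high salt, 7.45 to 8.19 after low salt) and of 6 oligodendrocyte or myelin markers 3 (9.02 to 9.33 after high salt, 8.71 to 9.27 after low salt). The part of these cells in the members' differences was not tested. In pooled tissue, more cells of a type and more RNA per cell cannot be told apart.

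**Figure D2:**
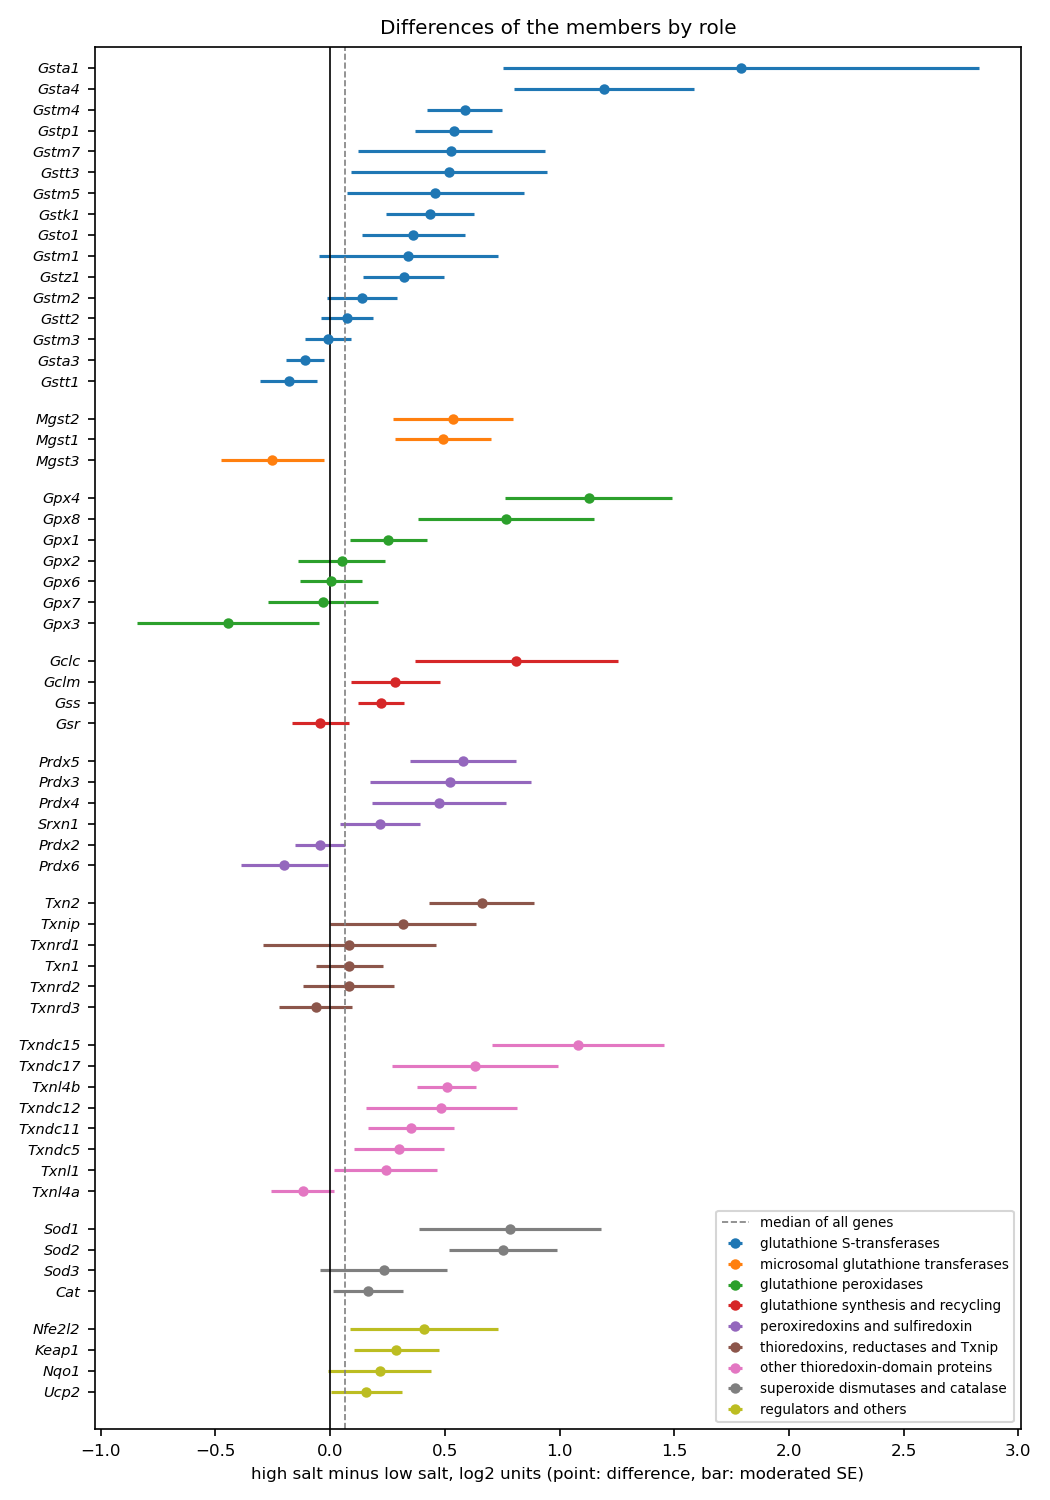
Difference of each member (high salt minus low salt, log2 units) with its moderated standard error, grouped by role; the dashed line is the median of all genes, 0.07. Most points lie to the right of it, from Gpx3 at -0.45 to Gsta1 at 1.79, and the bars of many reach across it.

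The superoxide dismutases and catalase were all on the high side, though Sod3 and Cat turned under quantile normalization. Sod2, the manganese enzyme of mitochondria, read 9.05, 9.11 and 9.09 on the high salt arrays, against 7.88, 8.31 and 8.80 on the low salt arrays. The high salt arrays lay together above all low salt arrays, with a difference of 0.75 ± 0.24 (SE), or 1.69-fold (limma unadjusted p = 0.0190). The mean of 8 macrophage or microglia markers, 6 of them higher, ran 9.25, 9.50 and 9.60 after high salt and 8.57, 9.02 and 9.32 after low salt. Its low salt arrays stood in the same order as for Sod2, an order also seen for Gpx4, Prdx5 and Txn2 among others. The part of these cells in the difference was not tested. Sod1, the copper and zinc enzyme of the cytosol, read 12.94, 13.02 and 12.89 after high salt, against 11.25, 12.81 and 12.44 after low salt. The groups did not overlap, at a difference of 0.79 ± 0.40, but low salt replicate 1 carried much of it: without that array the difference was 0.33.

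Sod3, the extracellular enzyme of the vessel wall, overlapped between diets. Its values were 9.40, 9.96 and 9.86 after high salt and 9.81, 8.97 and 9.75 after low salt, a difference of 0.23 ± 0.28 that turned to -0.02 after quantile normalization. Catalase (Cat), the peroxide-splitting enzyme of peroxisomes, averaged 9.46 ± 0.20 after high salt and 9.30 ± 0.18 after low salt (SD, n = 3 each). Its difference of 0.16 ± 0.15 was -0.07 after quantile normalization. The 4 genes of this arm had a median difference of 0.49, or 0.29 after quantile normalization.

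Among the glutathione peroxidases the phospholipid enzyme differed most. Gpx4, which reduces lipid peroxides within membranes, read 11.15, 11.83 and 10.51 after high salt, against 9.63, 10.23 and 10.25 after low salt. Every high salt array was above every low salt array, and the difference of 1.13 ± 0.36 was 2.18-fold (limma unadjusted p = 0.0220). Gpx8, a membrane protein of the endoplasmic reticulum, read 11.62, 12.39 and 11.59 after high salt and 10.36, 11.51 and 11.42 after low salt. The nearest arrays of the diets were close, and the difference of 0.77 ± 0.38 was 0.40 without low salt replicate 1 and 0.51 without high salt replicate 2.

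The other peroxidases overlapped between diets. Gpx1, the main cytosolic peroxidase, differed by 0.25 ± 0.17 (13.45 ± 0.18 after high salt, 13.20 ± 0.25 after low salt), and by 0.11 without low salt replicate 1 and 0.12 after median centring. Gpx3, the secreted enzyme of plasma, had the lowest difference of all members, -0.45 ± 0.40, and it rested on low salt replicate 1. The values were 10.04, 10.06 and 9.87 after high salt and 11.25, 9.64 and 10.42 after low salt, and without that replicate the difference was -0.04. Without low salt replicate 2 it was -0.84. Gpx7, a protein of the endoplasmic reticulum, differed by -0.03 ± 0.24. The 7 peroxidases had a median difference of 0.05, or -0.08 under median centring.

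**Figure D3:**
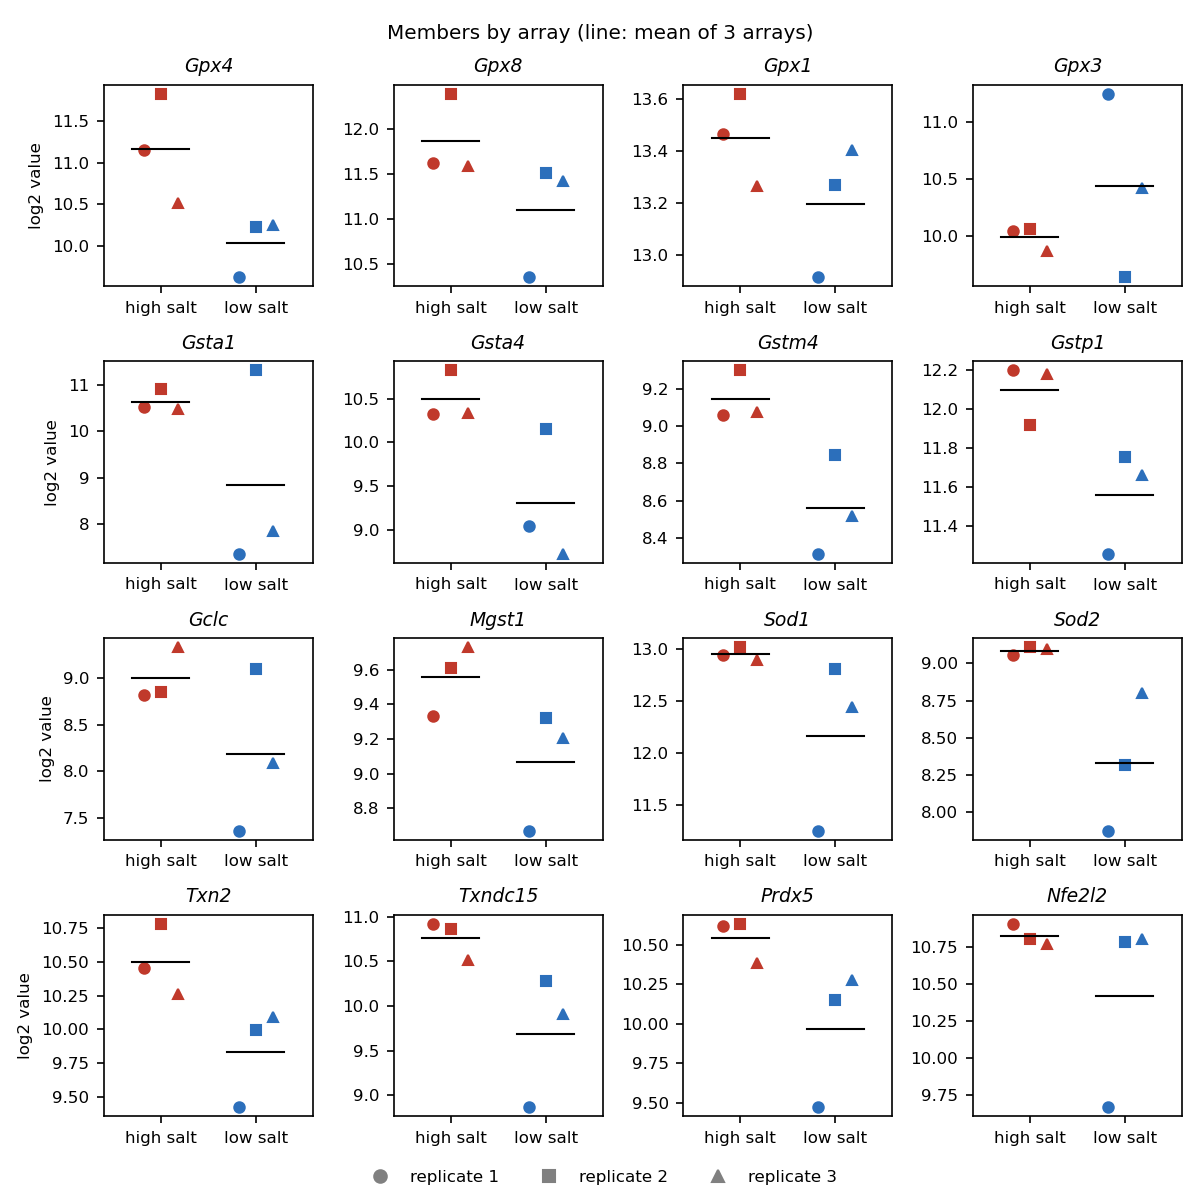
Log2 values of 16 members on each array, high salt on the left and low salt on the right; marker shapes are the replicates and lines the means of 3 arrays. For Gpx4 and Sod2 all high salt points lie above all low salt points, while for Gsta1 low salt replicate 2, at 11.30, lies above the high salt arrays and replicates 1 and 3 far below.

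Glutathione itself is built by Gclc and Gclm, the catalytic and modifier subunits of the rate-limiting ligase, and then by Gss. Gss was slightly but evenly higher, at 8.59, 8.49 and 8.64 after high salt against 8.41, 8.23 and 8.41 after low salt. The diets did not overlap, at a difference of 0.22 ± 0.10, and scaling took most of it away (0.09 after median centring, 0.06 after quantile normalization). Gclc read 8.81, 8.85 and 9.33 after high salt and 7.37, 9.09 and 8.09 after low salt. Low salt replicate 2 lay among the high salt arrays, and the difference of 0.81 ± 0.44 ran from 0.40 without low salt replicate 1 to 1.27 without low salt replicate 2. The other, dimmer probe set of Gclc differed by 0.10 ± 0.15.

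Gclm differed by 0.29 ± 0.19 (8.23 ± 0.24 after high salt, 7.95 ± 0.28 after low salt) and overlapped between diets. Its difference ran from 0.16 without high salt replicate 1 to 0.44 without low salt replicate 2. Gsr, the reductase that recharges glutathione, stood near the floor of the array at 6.13 ± 0.18 after high salt and 6.17 ± 0.08 after low salt, a difference of -0.04 ± 0.13. Of these 4 genes 3 were higher, with a median of 0.25 (0.11 after quantile normalization), and 0 had an unadjusted p below 0.05.

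The transferases held the largest single differences, those of Gsta1 and Gsta4, but not the largest median of the roles (0.49 for the superoxide dismutases and catalase). Of 16 measured, 3 had an unadjusted p below 0.05, all of them higher (5.72% of all genes were higher by that rule). In all 13 were higher and 3 lower, with a median of 0.40. That median rested on the low salt arrays: it was 0.10 without low salt replicate 3, while leaving out low salt replicate 2 gave 0.61. Quantile normalization took it to 0.18. Gsta4, the alpha class enzyme with a taste for hydroxynonenal, a lipid aldehyde, read 10.33, 10.83 and 10.34 after high salt and 9.04, 10.15 and 8.72 after low salt. There was no overlap, and the difference of 1.19 ± 0.39 was 2.29-fold (limma unadjusted p = 0.0233). Gstp1, the pi class enzyme, read 12.20, 11.92 and 12.18 after high salt and 11.26, 11.75 and 11.66 after low salt. Again the diets did not overlap, at 0.54 ± 0.17 (limma unadjusted p = 0.0186), or 0.34 after quantile normalization. Gstm4, of the mu class, read 9.06, 9.30 and 9.08 after high salt and 8.31, 8.85 and 8.52 after low salt, a difference of 0.59 ± 0.17 (limma unadjusted p = 0.0125).

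Some transferases, grouped here after their values were seen, varied more (by SD) among the low salt arrays than between diets. Gsta1 of the alpha class had the largest difference of all members, 1.79 ± 1.04, yet its arrays overlapped. It read 10.51, 10.91 and 10.47 after high salt, against 7.36, 11.30 and 7.85 after low salt, so that low salt replicate 2 was the highest of all 6 arrays. Without that array the difference was 3.02, with an adjusted p of 0.0501 (limma), the lowest of any member in any setting. Under the other settings its adjusted p ran from 0.547 to 0.999 (0.803 on the deposited values). Gstm5, Gstm1, Gstm7 and Gstt3 shared part of this pattern. Gsta4, though without overlap, also had low salt replicate 2 as the highest of its low salt arrays. Its difference ran from 0.90 without low salt replicate 3 to 1.62 without low salt replicate 2.

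Gstm5 read 12.33, 12.57 and 12.33 after high salt and 11.85, 12.77 and 11.22 after low salt. Gstm1 averaged 9.67 ± 0.32 after high salt and read 9.27, 10.09 and 8.63 after low salt. Gstt3, of the theta class, read 9.60, 9.88 and 9.90 after high salt and 9.42, 10.05 and 8.35 after low salt. In each of these, low salt replicate 2 was the highest array and low salt replicate 3 the lowest. Gstm7 read 9.80, 10.57 and 10.04 after high salt and 9.87, 10.19 and 8.78 after low salt, with low salt replicate 3 again the lowest. Without low salt replicate 3 the differences shrank, to 0.09 for Gstm5, -0.01 for Gstm1, 0.11 for Gstm7 and 0.05 for Gstt3. The astrocyte marker mean was also lowest on low salt replicate 3 (8.70) and near its top on low salt replicate 2 (10.70). A list of 8 fibroblast or meningeal markers, 7 of them higher, had means of 11.97, 12.38 and 12.23 after high salt and 11.59, 12.30 and 11.66 after low salt. The part of these cells in the transferase values was not tested. Mu class genes are close copies of each other, so that their probe sets may share signal.

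**Figure D4:**
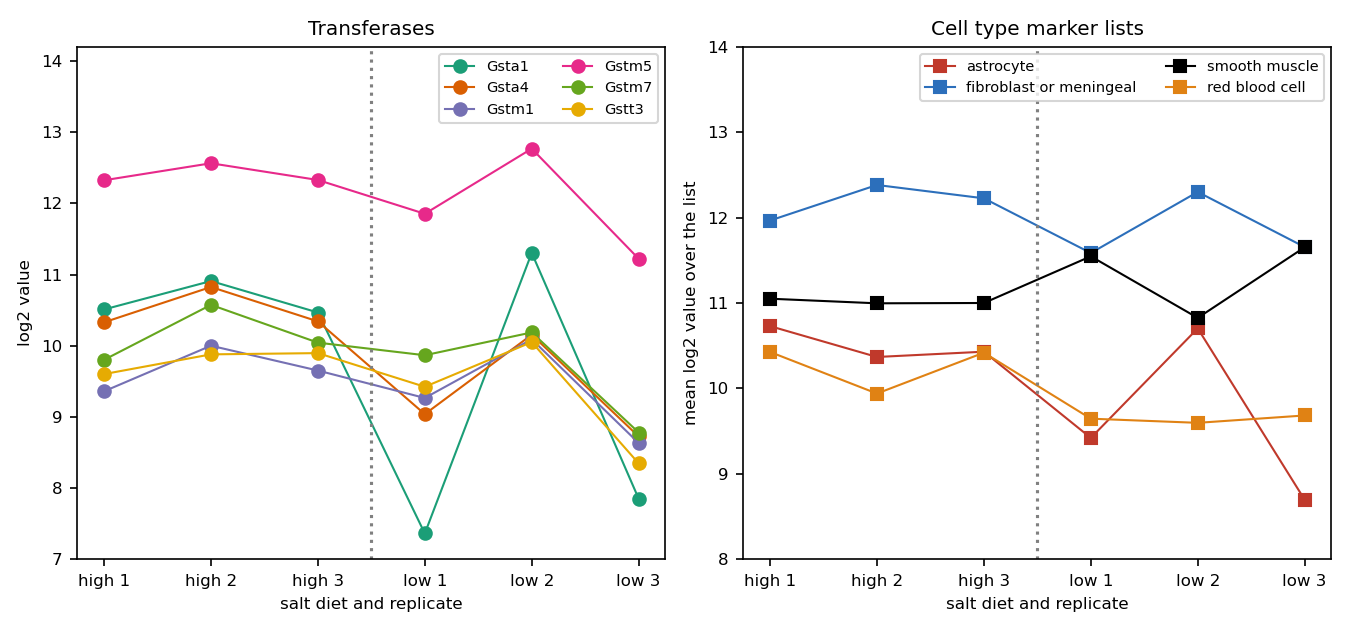
Left, log2 values of 6 transferases on each array; right, the mean log2 value of 4 cell type marker lists on the same arrays, with lines joining the values of a gene or list and a dotted line between high salt and low salt. Low salt replicate 2 is high for Gsta1 (11.30), astrocyte markers (10.70) and fibroblast or meningeal markers (12.30), and low salt replicates 1 and 3 are low for all of these.

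Of the remaining transferases Gstk1 differed most. Gstk1, the kappa class enzyme of mitochondria and peroxisomes, differed by 0.44 ± 0.19, Gsto1 of the omega class by 0.36 ± 0.22 and Gstz1, an isomerase of tyrosine breakdown, by 0.32 ± 0.18. After quantile normalization these stood at 0.22 for Gstk1, 0.14 for Gsto1 and 0.09 for Gstz1, and Gsto1 was 0.20 without low salt replicate 1. Gstt1 of the theta class was on the low side, at -0.18 ± 0.12. Gsta3 was the 1 member whose high salt arrays all lay below the low salt arrays, but by only -0.11 ± 0.08 and at a level, 5.24 after high salt and 5.35 after low salt, near the lowest of the array. Gstm2 (0.14), Gstt2 (0.07) and Gstm3 (-0.01) differed by less than their SE.

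Of the microsomal transferases, membrane proteins of a separate family, Mgst1 did not overlap between diets. It read 9.33, 9.61 and 9.73 after high salt and 8.67, 9.32 and 9.21 after low salt, where the nearest arrays of the diets were almost level. The difference was 0.49 ± 0.21, or 0.28 after quantile normalization and 0.29 without low salt replicate 1. Mgst2 differed by 0.53 ± 0.26, with low salt replicate 2 (10.26) among the high salt arrays (10.25, 10.39 and 10.06), and by 0.82 without that replicate. Mgst3 was on the low side, at -0.25 ± 0.22 (9.11 ± 0.38 after high salt, 9.36 ± 0.23 after low salt), and at -0.03 without high salt replicate 2.

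Peroxiredoxins reduce peroxides with a cysteine of their own. Prdx5, found in mitochondria, peroxisomes and cytosol, read 10.62, 10.63 and 10.38 after high salt and 9.47, 10.15 and 10.28 after low salt. The diets did not overlap, at 0.58 ± 0.23 (limma unadjusted p = 0.0478), but quantile normalization took the difference to 0.34, and it was 0.33 without low salt replicate 1. Prdx3 of mitochondria differed by 0.52 ± 0.35 and Prdx4 of the endoplasmic reticulum by 0.47 ± 0.29. Both overlapped, and without low salt replicate 1 they stood at 0.18 and 0.14.

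Prdx2, the cytosolic form that is abundant in red blood cells, averaged 12.67 ± 0.07 after high salt and 12.71 ± 0.13 after low salt. Its difference was -0.04 ± 0.11. Of the 4 measured red blood cell markers, Hbb, a beta globin, differed by 0.94 ± 0.24 and Alas2 by 0.93 ± 0.37. The others were Slc4a1 (0.33 ± 0.24) and Ahsp (0.28 ± 0.25). The part of red blood cells in the values of Prdx2 was not tested. Prdx6, which works with glutathione, differed by -0.20 ± 0.19, and by 0.0051 without low salt replicate 1 (9.47, with the other arrays at 8.81 to 8.89). Srxn1, sulfiredoxin, repairs overoxidised peroxiredoxins and differed by 0.22 ± 0.17, or -0.01 after quantile normalization.

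In the thioredoxin system the mitochondrial form differed most. Txn2, the thioredoxin of mitochondria, read 10.45, 10.78 and 10.26 after high salt, against 9.42, 9.995 and 10.09 after low salt. Its diets did not overlap, and the difference was 0.66 ± 0.23, or 1.58-fold (limma unadjusted p = 0.0282), and 0.42 after quantile normalization. Txn1 of the cytosol averaged 13.11 ± 0.20 after high salt and 13.03 ± 0.15 after low salt. The reductases differed by less than their SE. Txnrd1 of the cytosol differed by 0.08 ± 0.38, Txnrd2 of mitochondria by 0.08 ± 0.20 and Txnrd3 by -0.06 ± 0.16. Under both median centring and quantile normalization the signs of Txn1, Txnrd1 and Txnrd2 turned. Txnip, which binds and restrains thioredoxin, read 12.79, 12.29 and 12.80 after high salt and 11.65, 12.73 and 12.54 after low salt. Its difference of 0.32 ± 0.32 came down to -0.01 without low salt replicate 1.

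The other proteins with a thioredoxin fold serve protein folding, splicing and further ends rather than peroxide removal. Of 8 measured, 7 were higher, with a median of 0.42. Txnl4b, a splicing protein, had the lowest unadjusted p of all members read from their brightest probe sets, 0.00787 (limma). Its difference was 0.51 ± 0.13. It read 8.32, 8.28 and 8.20 after high salt and 7.70, 7.59 and 7.98 after low salt, with no overlap and little spread after high salt. Its relative Txnl4a, a part of the spliceosome, stood at -0.12 ± 0.14. Txndc15 read 10.92, 10.86 and 10.51 after high salt and 8.86, 10.28 and 9.90 after low salt, a difference of 1.08 ± 0.37 without overlap (limma unadjusted p = 0.0286), which was 0.67 without low salt replicate 1.

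Txndc5 and Txndc12, thiol oxidoreductases of the endoplasmic reticulum, differed by 0.30 ± 0.20 and 0.48 ± 0.33. Txndc5 stood at 0.16 without high salt replicate 3, and Txndc12 at 0.13 without low salt replicate 1. Txndc17, a cytosolic relative of thioredoxin, differed by 0.63 ± 0.36, and by 0.28 without high salt replicate 2 (10.23, against 9.31 and 9.02 on the other high salt arrays). Txndc11 differed by 0.35 ± 0.19 at a low level. Txnl1, which associates with the proteasome, depended on the probe set read. The brightest gave 0.24 ± 0.22 (0.08 without high salt replicate 2), and the next gave 0.75 ± 0.16 with no overlap (9.60, 9.70 and 9.83 after high salt, 8.66, 9.19 and 9.03 after low salt). For that next probe set the limma unadjusted p was 0.00378, below that of Txnl4b. The dimmest, at a mean level of 4.75, gave -0.07 ± 0.08.

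Nfe2l2, the factor that drives many of these genes, was low on 1 array. It read 10.90, 10.80 and 10.77 after high salt and 9.66, 10.78 and 10.80 after low salt. Its difference of 0.41 ± 0.32 was 0.03 without low salt replicate 1. Keap1, which holds Nfe2l2 in check, read 9.62, 9.09 and 9.32 after high salt and 9.09, 8.83 and 9.26 after low salt, a difference of 0.29 ± 0.18. It stood at 0.05 after quantile normalization, and its dimmer probe set gave 0.03 ± 0.08. Nqo1, a quinone reductase often read as a sign of Nfe2l2 activity, read 10.85, 10.71 and 10.77 after high salt and 10.35, 11.06 and 10.27 after low salt. Low salt replicate 2 was the highest array, and the difference was 0.22 ± 0.22, or -0.01 after quantile normalization. Ucp2, a carrier of the inner mitochondrial membrane, differed by 0.16 ± 0.16, and by -0.04 after quantile normalization.

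Genes that neighbour this defence were taken from a list of 61, of which 51 were measured. It holds enzymes of NADPH supply, haem breakdown, glutaredoxins, selenoprotein synthesis and further targets of Nfe2l2. Of these 42 were higher and 9 lower, with a median of 0.28. By comparison 60.0% of all genes were higher, and 76.6% of those in the 2 brightest quintiles. None passed the adjusted threshold (0 of 51, limma with Benjamini-Hochberg). At an unadjusted p below 0.05 stood 7 higher and 1 lower (5.72% and 0.711% of all genes). The diets did not overlap for 12 higher and 1 lower (8.64% and 3.32% of all genes). The lowest p belonged to Oplah, the oxoprolinase that returns glutamate from the glutathione cycle. It read 9.09, 9.09 and 8.34 after high salt against 7.62, 8.00 and 7.84 after low salt, without overlap, a difference of 1.02 ± 0.24 (limma unadjusted p = 0.00585). Tkt, the transketolase of the pentose phosphate pathway, came next, at 11.20 ± 0.08 after high salt and 10.50 ± 0.30 after low salt. It differed by 0.70 ± 0.17 (limma unadjusted p = 0.00642). Hmox1, haem oxygenase, averaged 8.55 ± 0.04 after high salt and 8.12 ± 0.14 after low salt. After their values were seen, Pgd and Taldo1 were added as the other measured enzymes of the pentose phosphate pathway on the list. They differed by 0.74 ± 0.20 and 0.72 ± 0.25, and for both enzymes every high salt array lay above every low salt array.

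The lean of the members depended on how the arrays were scaled, but stayed above that of all genes. The members are brighter than most genes, and no alternative compared them with genes of the same quintile of level. On the deposited values 84.6% of the members in the 2 brightest quintiles were higher, against 76.6% of the genes there. After median centring 41 of the 58 members were higher (70.7%, against 42.8% of all genes), with a median of 0.18 (-0.06 for all genes). After quantile normalization 36 were higher (62.1%, against 46.3%), with a median of 0.14 (-0.02). Leaving out low salt replicate 2 brought the number of members at an unadjusted p below 0.05 to 23 higher and 1 lower, with the median at 0.44. By the same fit 15.3% of all genes were higher and 4.71% lower, against 39.7% of the members higher. Leaving out high salt replicate 1 brought it to 4 higher and 0 lower (6.90% of the members higher, against 2.29% of all genes), and the median to 0.25. In no setting did a member pass an adjusted p of 0.05 (0 in each, with 58 members, or 52 above the 40th percentile).

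**Figure D5:**
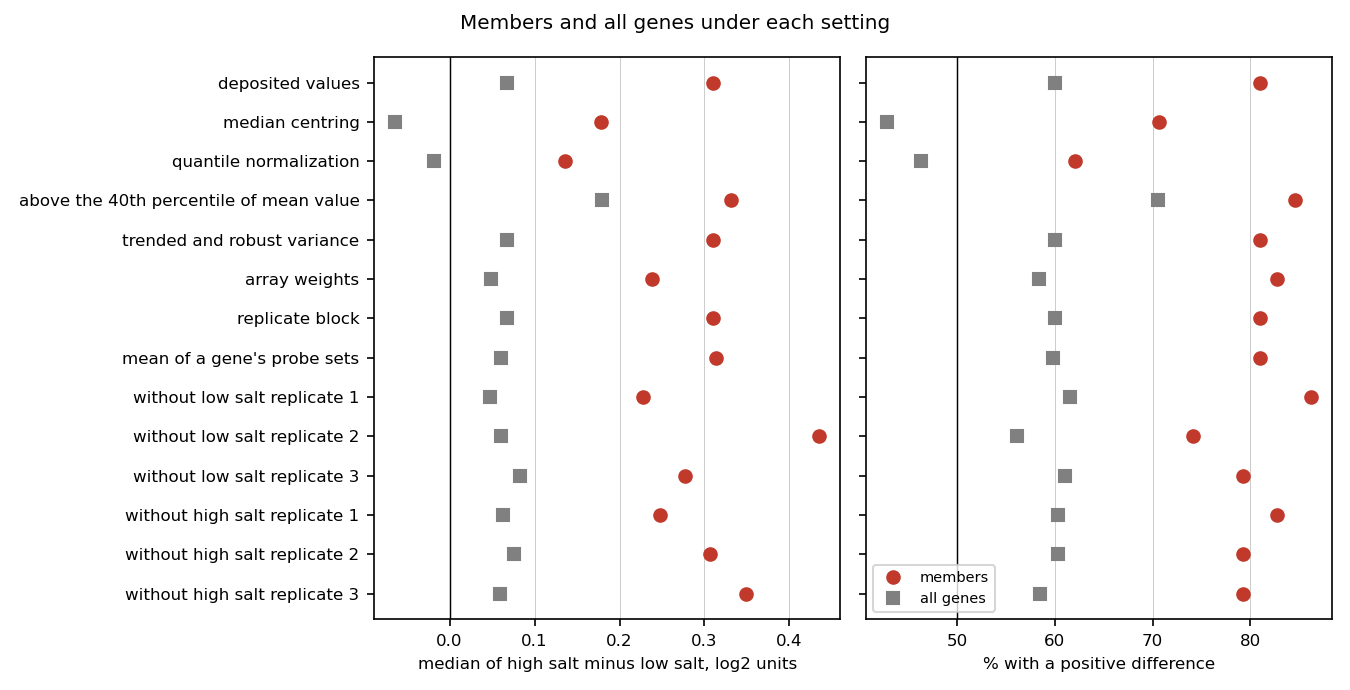
Left, median difference (high salt minus low salt, log2 units) of the members and of all genes under each setting; right, the percentage with a positive difference. The members lie above all genes in every setting shown, without matching for level, at a median of 0.31 on the deposited values and 0.14 after quantile normalization.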

How the data were processed

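Per the labels, RNA of each pool went through a kit with 2 rounds of amplification and onto 1 Affymetrix array. The deposited values are log2 expression values per probe set made by the authors with RMA, per the submitters' processing notes. The version of RMA is not stated, and the base of the logarithm was read from the range of the values. The table had 15923 probe sets; 57 controls were left out. Symbols came from the platform annotation, 12783 probe sets with 1 symbol, 312 with several and 2771 with none; all 58 members matched RefSeq (GRCr8) by Entrez identifier.

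The diets were compared with limma (version 3.58.1, R 4.3.3; lmFit and eBayes), 3 arrays against 3, with Benjamini-Hochberg adjustment over 15866 probe sets and a threshold of 0.05. SE is the moderated standard error, and SDs are over 3 arrays. The steps were tested on simulated data. Genes named are the 3 members of lowest p in each role and a fixed set; further members, such as Gsta1, Gpx3 and the mu class genes, were named after their values were seen. The members, the lists of markers and neighbours and this rule were chosen with earlier results of these data known. The number of arrays limits the precision. Deviations of same-numbered arrays of the diets correlated at 0.04, -0.27 and 0.04, and those of other pairs at -0.39 to 0.37. With 3 arrays per diet these values cannot show whether the numbers pair the pools. Alternatives were quantile normalization, median centring, dropping probe sets under the 40th percentile of mean level, trended and robust variances, array weights, a replicate block, omission of single arrays, averaged probe sets, adjustment over genes, and a threshold of 0.1.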

Additional observations from a re-analysis of the deposited data

How the results depend on the processing

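No member passed an adjusted p of 0.05 under any alternative, nor with adjustment over genes (0 members each, limma). At an unadjusted p below 0.05 stood 4 to 23 higher and 0 or 1 lower. The share of all genes moved as well, from 2.29% to 15.3% higher and from 0.288% to 4.71% lower. With every array kept, no member passed an adjusted p of 0.1 either. Without low salt replicate 2, Gsta1 (limma adjusted p = 0.0501) and Gsta4 (0.0953) fell below 0.1. With the replicate block the members' median difference stayed at 0.31, 47 were higher and no adjusted call changed. An unadjusted p below 0.05 was reached by 10 members, all higher (4.81% of all genes were higher by that rule). Without the block it was 9 members (5.72% of all genes). Quantile normalization took the median to 0.14 and the members without overlap between diets to 9, from 14 (15.5% of members, 12.4% of all genes). With 1 array left out, fewer arrays have to be apart, and that count ran from 17 to 31 (29.3% to 53.4% of members, against 16.6% to 41.2% of all genes). Of 63 genes followed (the members, Oplah, Tkt, Hmox1, Pgd and Taldo1), 43 kept their direction in every alternative and 20 turned in at least 1; the causes were not tested.

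Under quantile normalization these differences turned: Cat -0.071, Gpx2 -0.034, Gstm2 -0.055, Gstt2 -0.0076, Nqo1 -0.013, Sod3 -0.024, Srxn1 -0.014, Txn1 -0.0075, Txnrd1 -0.14, Txnrd2 -0.015 and Ucp2 -0.036. Under median centring they were Gpx2 -0.080, Gpx6 -0.13, Gstt2 -0.059, Txn1 -0.047, Txnrd1 -0.046 and Txnrd2 -0.050. Under array weights they were Gpx6 -0.058, Gstm3 0.0020, Prdx2 0.012, Txn1 -0.0076 and Txnrd3 0.041. With 1 array left out, differences ran from -0.046 to 0.23 for Gpx2, -0.10 to 0.094 for Gpx6, -0.27 to 0.11 for Gpx7, -0.15 to 0.014 for Gsr, -0.0079 to 0.72 for Gstm1, -0.043 to 0.053 for Gstm3 and -0.086 to 0.032 for Prdx2. They ran from -0.32 to 0.0051 for Prdx6, -0.038 to 0.40 for Sod3, -0.016 to 0.18 for Txn1, -0.0082 to 0.53 for Txnip, -0.23 to 0.45 for Txnrd1, -0.076 to 0.20 for Txnrd2 and -0.14 to 0.10 for Txnrd3.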
